A study of Homo sapiens with 15 samples.

Results

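The genes described here encode 7 enzymes or enzyme subunits of the tricarboxylic acid (TCA) cycle, CS, OGDH, SUCLA2, SUCLG1, SUCLG2, FH and MDH2, and glutamate dehydrogenase, GLUD1. They were taken by name, as TCA cycle and glutamine entry enzymes other than the isocitrate dehydrogenases, and are 8 of 56624 symbols in the deposited expression table. Of the 8, 7 were measured at 5.90 TPM or more in every library, and MDH2 was listed at 0 in all 15.

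The libraries came from TF-1, an erythroleukaemia line of human origin that depends on cytokines such as GM-CSF or IL-3 in culture, and from isogenic lines made from it by base editing, which changes single bases without a double-strand break. The 5 groups of 3 libraries were Parental, IDH1R132H, IDH2R140Q, IDH2R140W and IDH2R172K, each edited line named for the amino acid change in cytosolic IDH1 or mitochondrial IDH2. The medium was RPMI-1640 with antibiotics and 10% FBS for all of them. GM-CSF, at 2 ng/ml, was given to Parental cells and not to the edited lines, so genotype and medium cannot be told apart in any comparison with Parental, and these comparisons share the same 3 Parental libraries. The 4 edited lines shared a medium and can be compared with each other without that difference. The labels state neither whether an edited line is 1 clone nor whether replicates were separate cultures, so p-values here reflect how far these libraries spread, and that spread may be technical.

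The TCA cycle is a loop of mitochondrial enzymes that oxidises acetyl groups to carbon dioxide and passes electrons to the respiratory chain. Isocitrate dehydrogenase makes 2-oxoglutarate, which the 2-oxoglutarate dehydrogenase complex converts to succinyl-CoA, and the later steps return it by way of succinate, fumarate and malate to oxaloacetate. Glutamine carbon enters the loop as 2-oxoglutarate, which glutamate dehydrogenase or a transaminase makes from glutamate. The IDH1 and IDH2 mutations of leukaemia make enzymes that turn 2-oxoglutarate into 2-hydroxyglutarate, so the enzymes on both sides of 2-oxoglutarate share a substrate with them.

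Levels are in TPM, transcript abundance scaled for transcript length and to a fixed library total, so that levels of different genes can be set side by side. The read depth behind each value is unknown. Between 12796 and 13792 symbols reached 1 TPM in a library. Libraries of 1 group correlated with Pearson's r of 0.974 to 0.990 over genes, which are not independent. Of 10 marker genes of TF-1 identity, 7 reached 1 TPM, and GATA1, IL3RA and CSF2RA were listed at 0, each on 2 rows of the table. Lymphocyte markers summed to at most 3.05 TPM in any library. The 9 erythroid markers summed to between 2604 and 3548 TPM in Parental, 242 and 268 in IDH1R132H, 345 and 352 in IDH2R140Q, 786 and 990 in IDH2R140W, and 1688 and 1815 in IDH2R172K. The 6 mast cell and basophil markers summed to between 75.8 and 91.3 TPM in Parental and between 319.8 and 692.2 in the edited lines. Most of that sum was FCER1A, with means of 77.6 TPM in Parental and 248 to 637 in the edited lines. Single markers did not all follow the sums. Means of TPSB2 and HDC were lower in IDH1R132H than in Parental (2.27 against 2.77 and 0.62 against 1.29 TPM). Those of HBB in IDH2R140W (112.8 against 69.0) and ALAS2 in IDH2R172K (25.5 against 19.6) were higher. Megakaryocyte markers summed to between 322.6 and 354.6 TPM in Parental and between 436.0 and 632.5 in the edited lines. Among them, GP9 had lower means in the 3 IDH2 lines, 4.75 to 9.15 TPM against 13.7 in Parental. Monocyte markers summed to between 78.2 and 95.2 TPM in IDH2R140W and between 106.4 and 137.4 in the other groups. The part of these differences between groups in the results was not tested. Parental replicate 2 and IDH2R140W replicate 3 stood apart by their share of TPM from ribosomal protein genes, 20.7% and 21.6% beside 16.5% to 18.2% for the rest of their groups. These 2 libraries had the lowest summed TPM of the 8 enzyme genes in their groups, 526.9 and 486.5.

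Differences between groups are on the log2(TPM + 1) scale, and a gene passed where its limma adjusted p, over all 14881 genes tested, was under 0.05. In IDH1R132H against Parental, 3 of the 7 measured enzymes passed, OGDH and GLUD1 higher and SUCLG2 lower, where 43.8% of all genes passed. In IDH2R140Q, 3 of 7 passed, OGDH and FH higher and GLUD1 lower, against a background of 44.4%. In IDH2R140W, 2 of 7 passed, FH higher and SUCLA2 lower, against 24%. In IDH2R172K, 4 of 7 passed, OGDH and FH higher and SUCLA2 and SUCLG2 lower, against 39.1%. With 7 enzymes and such backgrounds, these shares are no result about the enzymes as a group. In bulk RNA, fewer cells that express a gene and less RNA per cell cannot be told apart. A change of at least 2-fold was reached by SUCLG2 in IDH1R132H, where 10.8% of all genes reached it, and by SUCLA2 in IDH2R172K, where 9.31% did. No enzyme passed in the same direction in all 4 lines.

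The median difference over all genes was above 0 in the comparisons with Parental, with 0.16 for IDH1R132H, 0.23 for IDH2R140Q, 0.03 for IDH2R140W and 0.13 for IDH2R172K, beside medians of the enzymes of 0.02, 0.09, −0.18 and 0.11. Median-ratio scaling, which sets each library by the median gene, lowered the medians over all genes to 0.04, 0.07, 0.01 and 0.03 and those of the enzymes to −0.12, −0.09, −0.21 and −0.02. It also lowered the share of passing genes that were higher, from 68.8% to 55.5% in IDH1R132H, from 75.0% to 58.3% in IDH2R140Q and from 65.4% to 52.9% in IDH2R172K. Under it, FH was lower in IDH1R132H (−0.23, limma adjusted p = 0.00473), and in IDH2R172K the rises of OGDH and FH no longer passed while SUCLG1 did (−0.22, adjusted p = 0.0464).

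**Figure D1:**
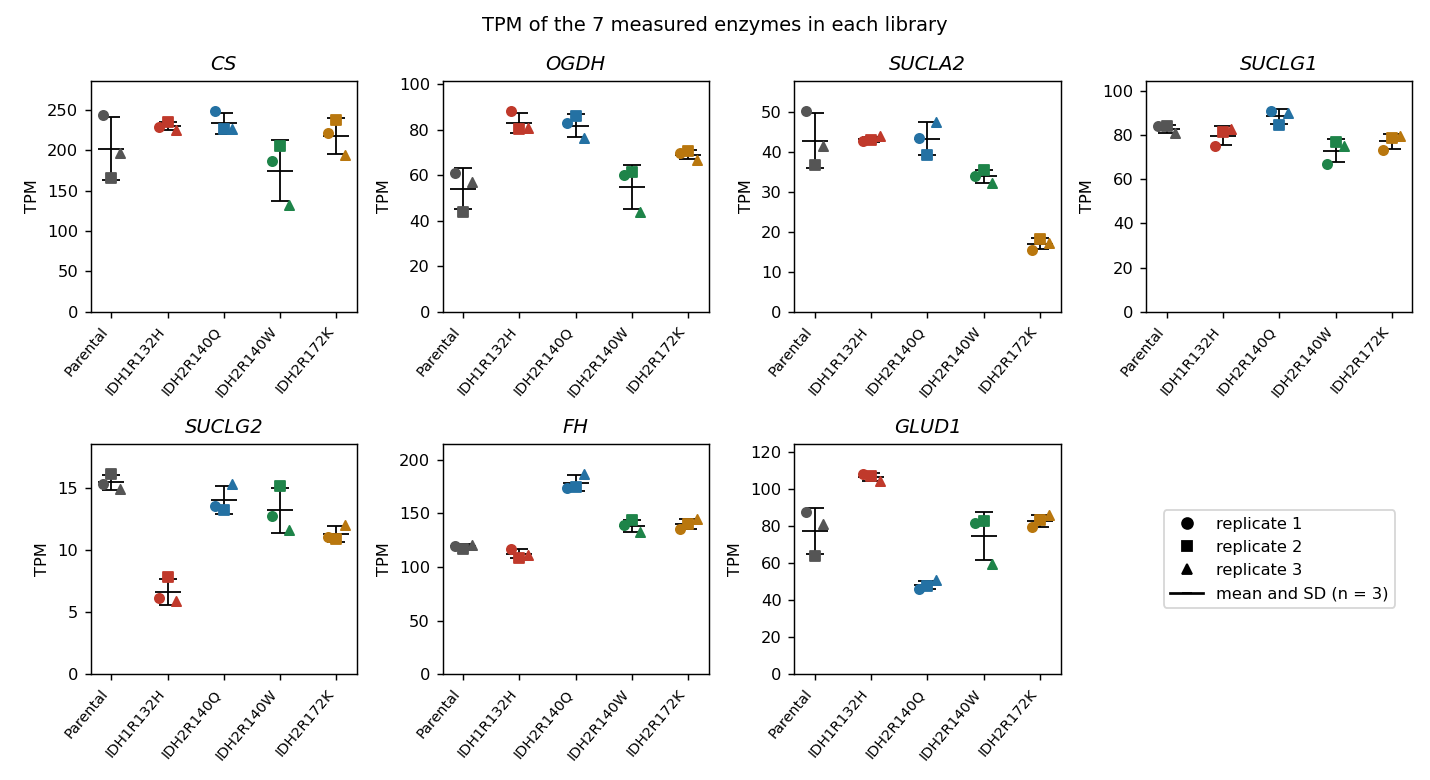
TPM of the 7 measured enzymes in each of the 15 libraries (vertical axes, linear and starting at 0) by group (horizontal axes). Symbols mark the replicates, and bars the mean and SD of 3 libraries. SUCLA2 lay between 15.4 and 18.2 TPM in IDH2R172K and SUCLG2 between 5.90 and 7.80 in IDH1R132H, below every other library.

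Among the 4 edited lines, which shared a medium, 6 of 7 enzymes differed by a limma F test, where 57.3% of all genes did. The adjusted p was 5.7e-07 for SUCLA2, 3.0e-06 for FH, 3.1e-05 for GLUD1, 4.1e-05 for SUCLG2, 0.00386 for OGDH and 0.0213 for SUCLG1. CS did not pass (adjusted p = 0.0658), although it passed with only the libraries of the compared groups (0.0329), without Parental replicate 1 (0.0379), without Parental replicate 2 (0.0346) and without IDH2R140W replicate 2 (0.0261). SUCLG1 did not pass under median-ratio scaling (adjusted p = 0.413). The 4 smallest values belonged to SUCLA2, FH, GLUD1 and SUCLG2, and the following windows before their start sites are printed to show what the promoters of these 4 genes hold. The sequences are the 250 bases before the RefSeq start in GRCh38.p14, 5′ to 3′ on the gene's own strand, which is the minus strand for all 4. The SUCLA2 window lies inside the GENCODE gene model, which extends farther in the 5′ direction. Capitals mark matches, on either strand, to GGGCGG (the GC box bound by SP1), CCAAT (bound by NF-Y), GCGC-AN-GCGC without the dashes (N, any base; bound by NRF1) or CCGGAAG (bound by GABPA and other ETS factors).
SUCLA2, chr13:48001274-48001523: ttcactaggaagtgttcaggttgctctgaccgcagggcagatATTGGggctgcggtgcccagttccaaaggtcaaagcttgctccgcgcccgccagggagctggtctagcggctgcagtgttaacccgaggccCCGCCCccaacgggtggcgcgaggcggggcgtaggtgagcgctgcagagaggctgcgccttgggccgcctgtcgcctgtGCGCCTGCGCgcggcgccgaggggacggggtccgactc
SUCLG2, chr3:67654613-67654862: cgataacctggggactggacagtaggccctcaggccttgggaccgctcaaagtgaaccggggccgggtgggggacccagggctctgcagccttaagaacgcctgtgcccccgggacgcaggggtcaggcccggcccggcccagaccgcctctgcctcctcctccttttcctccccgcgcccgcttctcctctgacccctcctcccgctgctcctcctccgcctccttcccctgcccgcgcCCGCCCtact
FH, chr1:241519756-241520005: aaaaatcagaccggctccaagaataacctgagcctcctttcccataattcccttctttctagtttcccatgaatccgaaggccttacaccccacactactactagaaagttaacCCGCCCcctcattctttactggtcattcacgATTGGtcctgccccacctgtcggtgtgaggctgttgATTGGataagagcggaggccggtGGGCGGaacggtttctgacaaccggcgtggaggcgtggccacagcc
GLUD1, chr10:87094844-87095093: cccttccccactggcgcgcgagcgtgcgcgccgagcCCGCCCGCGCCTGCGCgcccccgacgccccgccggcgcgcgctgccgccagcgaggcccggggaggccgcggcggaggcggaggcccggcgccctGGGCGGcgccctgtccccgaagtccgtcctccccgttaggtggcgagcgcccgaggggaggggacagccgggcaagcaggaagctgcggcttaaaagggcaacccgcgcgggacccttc
All 4 windows held a GC box, which 42.6% of 35116 RefSeq windows of this length held, and 62.3% of the 13611 windows of genes tested here. The NRF1 letters, in 5.07% of all windows and 8.71% of those of tested genes, were found in SUCLA2 at 38 to 29 bases before the start and in GLUD1 at 208 to 199, where they adjoin a GC box. CCAAT, in 32.0% of all windows and 32.9% of those of tested genes, was found in 2 places in FH and in 1 place in SUCLA2. The ETS letters, in 8.52% of all windows and 13.9% of those of tested genes, were in none of the 4. Of the 8 genes, 7 matched the RefSeq table, and OGDH did not. In the windows not printed, CS held CCAAT and GC boxes, SUCLG1 held none of the 4 motifs, and MDH2 held the ETS letters in 2 places. A match describes letters and not a bound site.

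CS encodes citrate synthase, which joins acetyl-CoA to oxaloacetate and opens the cycle (ENSG00000062485, GRCh38 chr12:56271699-56300392, minus strand). It was the most abundant of the 7, with a median of 225 TPM over the 15 libraries. Parental replicates stood at 243, 166 and 197 TPM, IDH1R132H at 229, 235 and 225, IDH2R140Q at 248.5, 225.9 and 226.1, IDH2R140W at 186, 206 and 132, and IDH2R172K at 222, 237 and 194. The lowest library in Parental and in IDH2R140W was the one with the high share of ribosomal protein transcripts. CS passed against Parental in no line, with differences from −0.21 ± 0.15 (SE) in IDH2R140W to 0.22 ± 0.15 in IDH2R140Q and limma adjusted p of 0.246 to 0.558. No neighbours in the order of its group means passed. IDH1R132H and IDH2R140Q were above IDH2R140W (0.42, adjusted p = 0.0441, and 0.44, adjusted p = 0.0382), and neither difference passed under median-ratio scaling (adjusted p = 0.0679 and 0.0883).

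OGDH encodes the first subunit of the 2-oxoglutarate dehydrogenase complex, which consumes 2-oxoglutarate (ENSG00000105953, chr7:44606572-44709066, plus strand). Parental replicates stood at 61.0, 43.8 and 57.2 TPM, IDH1R132H at 88.2, 80.3 and 80.7, IDH2R140Q at 83.1, 86.2 and 76.2, IDH2R140W at 59.9, 61.2 and 43.9, and IDH2R172K at 69.8, 70.7 and 66.8. All libraries of IDH1R132H, IDH2R140Q and IDH2R172K lay above all of Parental, and those of IDH2R140W overlapped it. The means of IDH1R132H and IDH2R140Q were 83.1 ± 4.47 (SD, n = 3) and 81.8 ± 5.10, against 54.0 ± 9.03 in Parental. OGDH was higher by 0.62 ± 0.13 (SE) in IDH1R132H (limma adjusted p = 0.00145) and by 0.60 ± 0.13 in IDH2R140Q (adjusted p = 0.002). In IDH2R172K it was higher by 0.36 ± 0.13 (adjusted p = 0.0398), a call lost in 6 of the 15 analyses without 1 library, with its smallest value without Parental replicate 2 (0.22, adjusted p = 0.168). In IDH2R140W the difference was 0.02 (adjusted p = 0.927). No neighbours in the order of its 5 group means passed, although IDH1R132H was above IDH2R140W (0.60, adjusted p = 0.00247).

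Succinyl-CoA ligase turns succinyl-CoA into succinate and forms ATP or GTP. It pairs 1 alpha subunit, SUCLG1, with 1 of 2 beta subunits, SUCLA2 in the ATP-forming and SUCLG2 in the GTP-forming enzyme. The alpha subunit transcript stayed between 66.9 and 90.8 TPM in the 15 libraries, whereas each beta subunit was lowest in a different edited line.

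SUCLG1 (ENSG00000163541, chr2:84423523-84460045, minus strand) stood at 83.9, 83.9 and 80.7 TPM in Parental, 74.8, 81.4 and 83.0 in IDH1R132H, 90.8, 84.4 and 89.9 in IDH2R140Q, 66.9, 76.9 and 74.9 in IDH2R140W, and 73.3, 78.5 and 79.6 in IDH2R172K. It passed against Parental in none of the 4 lines, and its largest difference was −0.18 ± 0.07 (SE) in IDH2R140W (limma adjusted p = 0.0702). All IDH2R140Q libraries were above all of IDH2R140W (0.28, adjusted p = 0.00774), and this difference did not pass under median-ratio scaling (0.13, adjusted p = 0.282).

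SUCLA2 (ENSG00000136143, chr13:47745736-48037968, minus strand) stood at 50.1, 36.7 and 41.5 TPM in Parental, 42.5, 43.0 and 43.8 in IDH1R132H, 43.3, 39.1 and 47.3 in IDH2R140Q, 33.9, 35.3 and 32.1 in IDH2R140W, and 15.4, 18.2 and 17.2 in IDH2R172K. The IDH2R172K libraries lay far below all others, and those of IDH2R140W just below Parental. The mean fell from 42.8 ± 6.79 (SD, n = 3) in Parental to 16.9 ± 1.39 in IDH2R172K, a difference of −1.28 ± 0.11 (SE, limma adjusted p = 6.2e-07). It passed in all 27 alternative analyses, with adjusted p of at most 0.00048. IDH2R172K was also below the next line, IDH2R140W (0.96, adjusted p = 1.3e-05). In IDH2R140W, SUCLA2 was lower than in Parental by a difference of −0.32 ± 0.11 (adjusted p = 0.045), a call that was lost in 11 of the 15 analyses without 1 library, among them that without Parental replicate 1 (−0.20, adjusted p = 0.177). IDH1R132H and IDH2R140Q each differed from Parental by 0.02.

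SUCLG2 (ENSG00000172340, chr3:67360460-67654614, minus strand) stood at 15.3, 16.1 and 14.9 TPM in Parental, 6.13, 7.80 and 5.90 in IDH1R132H, 13.5, 13.2 and 15.3 in IDH2R140Q, 12.7, 15.2 and 11.6 in IDH2R140W, and 11.04, 10.84 and 12.02 in IDH2R172K. The 3 IDH1R132H libraries were the lowest of the 15, and no IDH2R172K library reached Parental. The mean was 6.61 ± 1.04 (SD, n = 3) in IDH1R132H against 15.4 ± 0.61 in Parental, a difference of −1.12 ± 0.12 (SE, limma adjusted p = 5.8e-06). In IDH2R172K the difference was −0.42 ± 0.12 (adjusted p = 0.0144). IDH1R132H was also below each IDH2 line, with a difference of −0.70 from IDH2R172K, its neighbour in the order (adjusted p = 0.000528), and of −0.99 from IDH2R140Q (adjusted p = 3.7e-05). Quantile normalisation brought the difference of IDH2R140Q from Parental from −0.13 to −0.44 (adjusted p = 0.0112).

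The ratio of SUCLA2 to SUCLG2 TPM within a library does not depend on library scaling. It was 3.28, 2.28 and 2.78 in Parental, 6.94, 5.51 and 7.42 in IDH1R132H, 3.20, 2.96 and 3.09 in IDH2R140Q, 2.66, 2.33 and 2.77 in IDH2R140W, and 1.40, 1.68 and 1.43 in IDH2R172K. Every IDH1R132H ratio lay above, and every IDH2R172K ratio below, those of the other groups. The GTP-forming subunit SUCLG2 made up 13.3% ± 1.85 (SD, n = 3) of the summed beta subunit TPM in IDH1R132H, 26.8% ± 3.56 in Parental and 40.1% ± 2.33 in IDH2R172K. Summed beta subunit TPM per SUCLG1 TPM was between 0.361 and 0.369 in IDH2R172K and between 0.584 and 0.779 in the other libraries. The ratio is a description and was not tested.

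**Figure D2:**
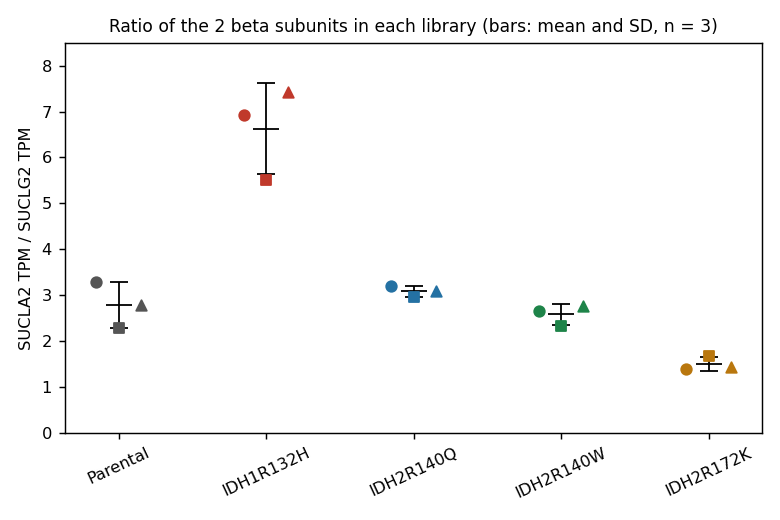
Ratio of SUCLA2 to SUCLG2 TPM (vertical axis, linear and starting at 0) in each library by group (horizontal axis), with the mean and SD of 3 libraries as bars. IDH1R132H libraries lay between 5.51 and 7.42 and IDH2R172K libraries between 1.40 and 1.68, on opposite sides of the rest.

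FH encodes fumarase, which hydrates fumarate to malate (ENSG00000091483, chr1:241497603-241519761, minus strand). Parental replicates stood at 120, 117 and 121 TPM, IDH1R132H at 117, 109 and 111, IDH2R140Q at 174, 174 and 187, IDH2R140W at 139, 144 and 132, and IDH2R172K at 136, 140 and 144. In TPM, all 9 libraries of the IDH2 lines lay above all 6 of Parental and IDH1R132H. The share of all genes split in this way was not computed, and Parental differed from the other groups in medium. The mean rose from 119 ± 2.11 (SD, n = 3) in Parental to 178 ± 7.42 in IDH2R140Q, a difference of 0.57 ± 0.06 (SE, limma adjusted p = 2.5e-06), or 0.40 under median-ratio scaling (adjusted p = 9.9e-05). The differences were 0.21 ± 0.06 in IDH2R140W (adjusted p = 0.0131) and 0.23 ± 0.06 in IDH2R172K (adjusted p = 0.00522). The second did not pass under median-ratio scaling (0.11, adjusted p = 0.151), and the first did not pass without IDH2R140W replicate 2 (0.19, adjusted p = 0.0598). IDH2R140Q was above IDH2R172K, the next in order (0.34, adjusted p = 0.000312), whereas IDH2R172K and IDH2R140W differed by 0.02. IDH1R132H was below IDH2R140Q by a difference of −0.66 ± 0.06 (adjusted p = 1.3e-06).

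MDH2 encodes mitochondrial malate dehydrogenase, which oxidises malate to oxaloacetate and closes the cycle (ENSG00000146701, chr7:76048051-76067508, plus strand). It was listed at 0 in all 15 libraries, on 2 rows, and was not tested. PGK1, a glycolytic enzyme that cells in culture express at high levels, and POR, the reductase of microsomal cytochromes, were likewise on 2 rows at 0. In the table, 757 of 1118 protein-coding symbols on more than 1 row were listed at 0 in every library (67.7%), against 1354 of 17248 on 1 row (7.85%). MDH2 lay in a run of 9 neighbouring protein-coding symbols, from HIP1 to SRRM3 (chr7:75533300-76287288), each on 2 rows and each under 0.5 TPM in every library. Its value of 0 is therefore given as the listing in the table and not as a measurement of the transcript.

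GLUD1 encodes mitochondrial glutamate dehydrogenase, which converts glutamate to 2-oxoglutarate and back (ENSG00000148672, chr10:87050486-87094866, minus strand). Parental replicates stood at 87.8, 63.8 and 80.8 TPM, IDH1R132H at 108, 107 and 104, IDH2R140Q at 46.1, 47.8 and 50.6, IDH2R140W at 81.7, 82.8 and 59.5, and IDH2R172K at 79.3, 83.1 and 85.7. IDH1R132H held the 3 highest and IDH2R140Q the 3 lowest libraries of the 15. The mean was 106 ± 1.98 (SD, n = 3) in IDH1R132H and 48.2 ± 2.31 in IDH2R140Q, against 77.4 ± 12.3 in Parental. GLUD1 was higher than Parental by 0.46 ± 0.12 (SE) in IDH1R132H (limma adjusted p = 0.00785), and its difference in IDH2R140Q was −0.66 ± 0.12 (adjusted p = 0.000734). The 2 lines differed from each other by 1.13 ± 0.12 (adjusted p = 1.3e-05), the one difference of at least 2-fold among the enzymes in that comparison, where 5.5% of all genes reached it. IDH2R140W and IDH2R172K lay close to Parental, with differences of −0.06 and 0.11. GLUD2, a paralog of near-identical sequence, stood at group means of 0.88 to 2.13 TPM, and the pseudogene GLUD1P3 at 1.31 to 2.86, so that reads shared between copies leave the split between them uncertain. The listed pseudogenes of SUCLA2, SUCLG2 and FH reached at most 0.14, 0.27 and 0.99 TPM in any library.

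**Figure D3:**
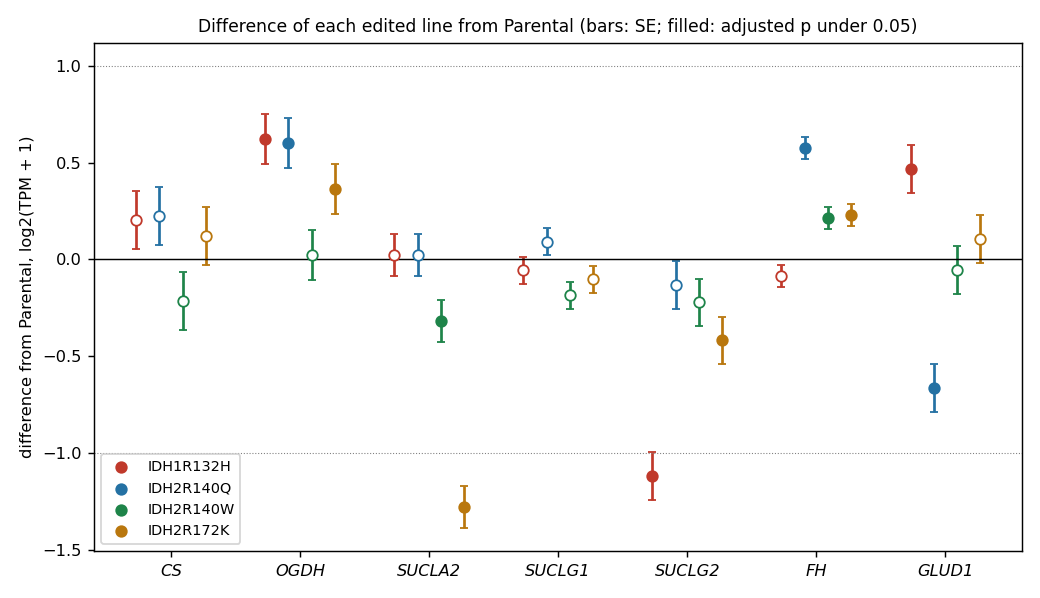
Difference of each edited line from Parental for the 7 measured enzymes (vertical axis, log2(TPM + 1); horizontal axis, gene), with SE as bars and filled points where the limma adjusted p was under 0.05. GLUD1 lay at 0.46 in IDH1R132H and −0.66 in IDH2R140Q, and the points beyond 2-fold, at the dotted lines, are SUCLG2 in IDH1R132H (−1.12) and SUCLA2 in IDH2R172K (−1.28).

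For all 4 edited lines averaged against Parental, 4 of 7 enzymes passed where 42.8% of all genes did. OGDH was higher by 0.40 ± 0.10 (SE, limma adjusted p = 0.00611) and FH by 0.23 ± 0.04 (adjusted p = 0.000844), and the differences were −0.47 ± 0.10 for SUCLG2 (adjusted p = 0.00136) and −0.39 ± 0.09 for SUCLA2 (adjusted p = 0.00235). For each of the 4 genes the edited libraries overlapped Parental, and the lines contributed unequally. The OGDH call was lost without Parental replicate 2 (0.26, adjusted p = 0.0557) and the FH call under median-ratio scaling (0.11, adjusted p = 0.0568).

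IDH1R132H was also compared with the mean of the 3 IDH2 lines, an edit of the cytosolic against the mitochondrial enzyme in 1 medium. Of 7 enzymes, 5 passed where 32.8% of all genes did. GLUD1 was higher in IDH1R132H by 0.67 ± 0.10 (SE, limma adjusted p = 0.000167) and SUCLA2 by 0.55 ± 0.09 (adjusted p = 0.000274), and FH and SUCLG2 were lower, with differences of −0.43 ± 0.05 (adjusted p = 7.8e-06) and −0.86 ± 0.10 (adjusted p = 1.5e-05). For GLUD1, FH and SUCLG2 no IDH1R132H library overlapped any library of the IDH2 lines. The share of all genes without such overlap was not computed, so this is no result about the enzymes as a group. SUCLA2 in IDH1R132H overlapped the IDH2 lines, and its difference was 1.30 from IDH2R172K, 0.34 from IDH2R140W and −0.0001 from IDH2R140Q. OGDH was higher by 0.29 ± 0.11 (adjusted p = 0.0467), a call lost in 10 of the 15 analyses without 1 library, with adjusted p of up to 0.18 over all alternatives. With 1 IDH1 line, the edited gene and the line itself cannot be told apart.

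The enzyme genes were set beside their chromosomal neighbours, the 10 nearest tested protein-coding genes on each side, with no test. Around SUCLA2 in IDH2R172K, 17 of 20 neighbours were lower than in Parental and none was higher, over chr13:44989529-49528987. Of all genes, 13.5% were lower and 25.5% higher in that line. The median difference of the neighbours was −0.89 beside −1.28 for SUCLA2. Among them, ITM2B fell from 200 to 86.7 TPM, the actin-bundling protein gene LCP1 from 170 to 73.8, the esterase gene ESD from 115 to 58.4, and the Mediator subunit gene MED4 from 61.8 to 32.5. The median over the 200 tested protein-coding genes of chromosome 13 was −0.12 and that of all other chromosomes 0.14. The same neighbours had medians of 0.06 in IDH1R132H, 0.28 in IDH2R140Q and 0.01 in IDH2R140W, where SUCLA2 differed by 0.02, 0.02 and −0.32. The lower level of SUCLA2 in IDH2R172K was thus shared by the genes around it, and what the genes of this stretch have in common was not tested.

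The neighbours of 3 other enzyme genes are given in the same way. Around SUCLG2 in IDH1R132H, 3 of 20 neighbours were lower and 1 higher, where 13.7% of all genes were lower and 30.1% higher. Their median was −0.07 beside −1.12 for SUCLG2. Around GLUD1 in IDH2R140Q, 5 of 20 were lower and 4 higher, where 11.1% of all genes were lower and 33.3% higher. Their median was −0.11 beside −0.66, while the median of chromosome 10 was −0.16 and that of other chromosomes 0.26. The 2 genes next to GLUD1 on its 3′ side, SNCG and MMRN2, whose gene models overlap each other, were at 11.6 and 5.68 TPM in Parental and at 0.487 and 0.547 in IDH2R140Q, and are named here after their values were seen. Around FH in IDH2R140Q, 11 of 20 were higher, where 33.3% of all genes were, and none was lower. Their median was 0.43 beside 0.57 for FH, against 0.24 for chromosome 1. The same neighbours had medians of 0.33 in IDH1R132H, 0.11 in IDH2R140W and 0.27 in IDH2R172K. Of them 9, 4 and 9 were higher, where 30.1%, 13.3% and 25.5% of all genes were. In those lines FH differed by −0.09, 0.21 and 0.23.

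**Figure D4:**
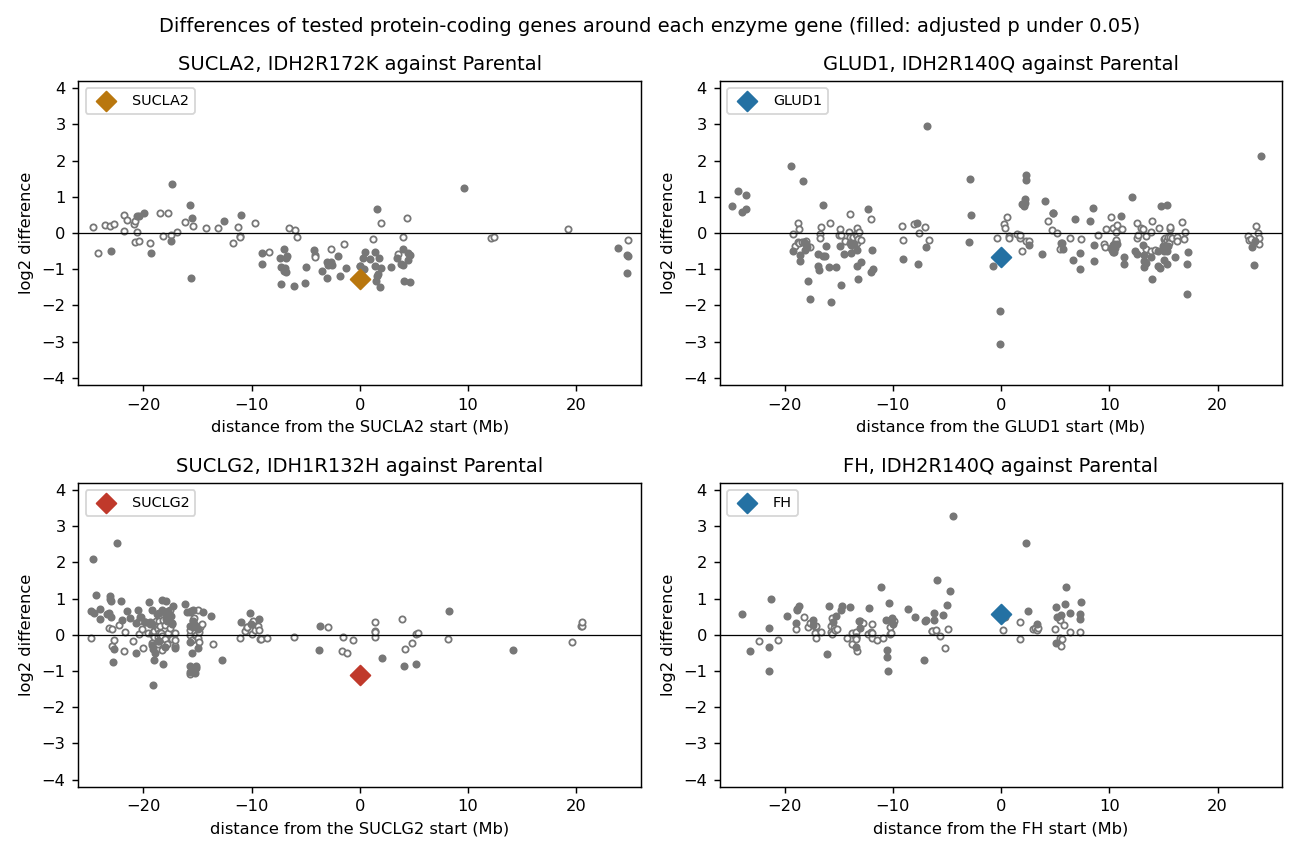
Difference from Parental (vertical axes, log2(TPM + 1)) of tested protein-coding genes within 25 Mb of 4 enzyme genes (horizontal axes, distance from the enzyme gene's start in Mb), filled where the limma adjusted p was under 0.05, with the enzyme gene as a diamond. Around SUCLA2 in IDH2R172K the nearest points lie below 0 on both sides, with a median of −0.89 over 20 genes, and around SUCLG2 in IDH1R132H they lie on both sides of 0.

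Of all genes tested, 30.1% rose and 13.7% fell in IDH1R132H, 33.3% and 11.1% in IDH2R140Q, 13.3% and 10.7% in IDH2R140W, and 25.5% and 13.5% in IDH2R172K, the background for the related gene lists. Under median-ratio scaling, 43.7%, 40.8%, 26% and 38.7% of all genes passed in either direction, in the same order of lines. The genes that were higher under it numbered 3593, 3526, 2030 and 3036, and those that were lower 2880, 2519, 1826 and 2702. Of the other TCA cycle enzymes, 8 were tested. Of these, 1 rose and 4 fell in IDH1R132H, 2 rose and 1 fell in IDH2R140Q, 0 rose and 2 fell in IDH2R140W, and 1 rose and 3 fell in IDH2R172K. Their median differences were −0.20, −0.11, −0.06 and −0.10, beside medians over all genes of 0.16, 0.23, 0.03 and 0.13. DLD, the dihydrolipoamide dehydrogenase that OGDH shares with the pyruvate dehydrogenase complex, fell in IDH1R132H from 132 ± 8.60 TPM (SD, n = 3) to 63.7 ± 3.45, a difference of −1.04 (limma adjusted p = 5.6e-08), and no library overlapped. In that line the 3 subunit genes of the 2-oxoglutarate dehydrogenase complex thus moved apart, with OGDH higher, DLD lower and DLST, the succinyltransferase, lower by a difference of −0.48 (adjusted p = 0.0036). DLST was lower also in IDH2R140Q (−0.49) and IDH2R172K (−0.69), and DLD was higher in IDH2R140Q (0.20, adjusted p = 0.032), but not under median-ratio scaling (0.02, adjusted p = 0.79). OGDHL, an OGDH-like paralog at 8.43 TPM in Parental, was lower in IDH1R132H (−0.78), IDH2R140W (−0.88) and IDH2R172K (−1.11). SDHA, the flavoprotein of succinate dehydrogenase, was lower in IDH1R132H (−0.29), IDH2R140W (−0.32) and IDH2R172K (−0.81, from 163 to 92.0 TPM), while SDHB, SDHC and SDHD passed in none of the 4 lines.

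Of 16 tested genes of glutamine and glutamate metabolism, 9 were higher and 4 lower in IDH1R132H, 3 higher and 5 lower in IDH2R140Q, 0 higher and 5 lower in IDH2R140W, and 1 higher and 5 lower in IDH2R172K. The medians were 0.43, −0.06, 0.06 and −0.20. Under median-ratio scaling 3 were higher and 10 lower in IDH2R140Q, and 0 higher and 10 lower in IDH2R172K. In these lines 40.8% and 38.7% of all genes passed under that scaling in either direction. GLUL, glutamine synthetase, fell in IDH1R132H (−1.11, limma adjusted p = 0.00014), and OAT, ornithine aminotransferase, in IDH1R132H (−1.09) and IDH2R140Q (−1.06). In IDH1R132H these 2 were among the 4 lower genes, beside 9 higher ones. The mean of SLC1A5 there was 419 TPM against 307 in Parental, and that of SLC3A2 236 against 152. The alanine aminotransferase gene GPT was lower in all 4 lines at low levels, with 1.60 TPM in Parental and group means of 0.11 to 0.68 TPM in the edited lines. GOT1, cytosolic aspartate aminotransferase on chromosome 10, followed the directions of GLUD1, with 0.58 in IDH1R132H and −0.50 in IDH2R140Q. PSAT1, phosphoserine aminotransferase, which also makes 2-oxoglutarate, fell in IDH2R172K from 78.5 to 25.8 TPM (−1.58, adjusted p = 4.4e-08) and in IDH2R140W (−0.73).

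**Figure D5:**
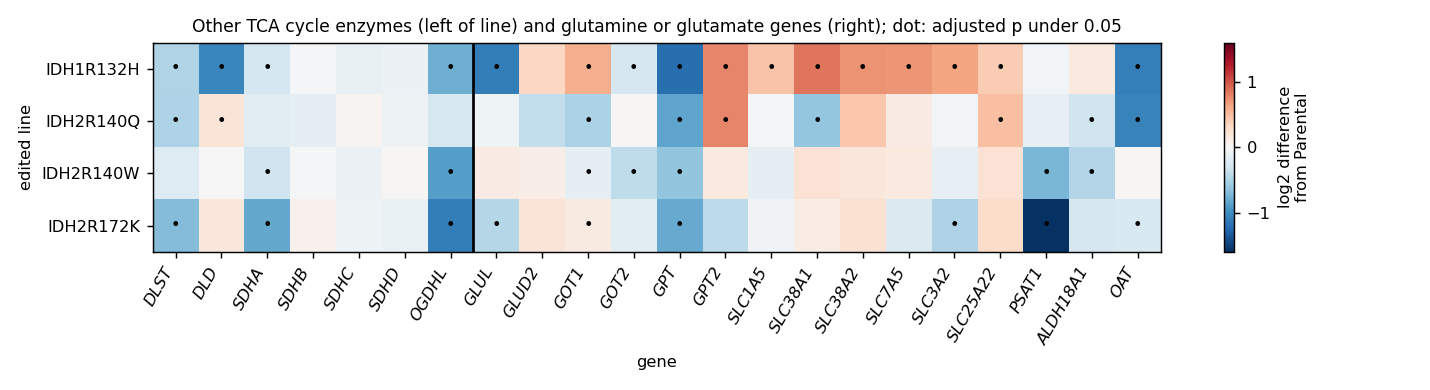
Log2 difference from Parental (colour; red higher, blue lower) of the other TCA cycle enzymes, left of the line, and of genes of glutamine and glutamate metabolism, right of it (horizontal axis, gene), in each edited line (vertical axis), with a dot where the limma adjusted p was under 0.05. DLD in IDH1R132H (−1.04) and PSAT1 in IDH2R172K (−1.58) are among the darkest blue cells. A few genes counted with the lists are not drawn.

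Of 12 tested genes of pyruvate entry, 5 were higher and 2 lower in IDH1R132H, 5 and 2 in IDH2R140Q, 1 and 3 in IDH2R140W, and 2 and 1 in IDH2R172K, with medians of 0.25, 0.31, 0.07 and 0.21. PDK1 and PDK4, kinases that switch off pyruvate dehydrogenase, were higher in IDH1R132H (1.01 and 1.24), and the phosphatase PDP1, which reverses them, was higher in IDH2R140Q (1.20). PDK4 was at low levels, with means of 0.25 TPM in Parental and 1.95 in IDH1R132H. PDK1 also stood at 22.6 to 29.1 TPM in IDH2R140Q, against 12.2 to 14.6 in Parental. Means of PDP1 were 2.67 TPM in Parental, 4.43 in IDH1R132H and 7.25 in IDH2R140Q. PC, pyruvate carboxylase, which supplies oxaloacetate, was lower in all 4 lines, with differences from −0.38 to −0.72. Of 11 tested genes of malate, citrate and aspartate exchange, 1 was higher and 3 lower in IDH1R132H, 4 and 0 in IDH2R140Q, 1 and 4 in IDH2R140W, and 2 and 4 in IDH2R172K, with medians of −0.08, 0.21, −0.14 and −0.16. MDH1, cytosolic malate dehydrogenase, was lower in IDH1R132H (−0.57, limma adjusted p = 0.0019). ME1, cytosolic malic enzyme, fell from 82.6 to 30.8 TPM in IDH2R172K (−1.40, adjusted p = 1.6e-09), and PCK2, which makes phosphoenolpyruvate from oxaloacetate in mitochondria, was lower there by a difference of −1.06. Both also lay below every Parental library in IDH2R140W. The means there were 49.5 TPM for ME1 and 27.5 for PCK2, which stood at 50.7 in Parental.

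Of 6 tested genes that use 2-oxoglutarate or 2-hydroxyglutarate, 1 was higher and 1 lower in IDH1R132H, 1 and 1 in IDH2R140Q, 0 and 1 in IDH2R140W, and 0 and 3 in IDH2R172K, with medians of 0.17, 0.39, −0.09 and −0.50. BCAT2, the mitochondrial branched-chain aminotransferase, was lower in all 4 lines (−1.01 in IDH1R132H, limma adjusted p = 4.2e-08). Of 6 lipoylation genes, which build the cofactor of the dehydrogenase complexes, 0 rose and 1 fell in IDH1R132H, 1 rose and 2 fell in IDH2R140Q, 0 passed in IDH2R140W, and 0 rose and 1 fell in IDH2R172K, with medians of −0.16, −0.04, −0.19 and −0.17. Of 17 genes of mitochondrial abundance and biogenesis, 10 were higher and 2 lower in IDH1R132H, 5 and 3 in IDH2R140Q, 3 and 2 in IDH2R140W, and 3 and 3 in IDH2R172K, or 8 and 3, 1 and 6, 3 and 3, and 2 and 5 under median-ratio scaling. Their medians were 0.21, 0.09, −0.04 and 0.10. TFAM, which packages and transcribes mitochondrial DNA, was lower in all 4 lines, at −0.62, −1.51, −0.75 and −0.86. In IDH1R132H it was among the 2 lower genes of this list, beside 10 higher ones. The mean of POLG in that line was 71.8 TPM against 46.7 in Parental. PPARGC1B stood at 9.22 to 10.03 TPM there, against 4.41 to 6.34 in Parental. Of 4 tested isocitrate dehydrogenase genes, 1 was higher and 1 lower in IDH1R132H, 2 and 0 in IDH2R140Q, 0 and 1 in IDH2R140W, and 0 and 2 in IDH2R172K, or 1 and 1, 1 and 1, 0 and 2, and 0 and 2 under median-ratio scaling. IDH3B, a subunit of the NAD-dependent enzyme of the cycle, was at a mean of 192 TPM in Parental, 268 in IDH1R132H and 232 in IDH2R140Q, with no overlap between either line and Parental. It was higher by 0.48 in IDH1R132H (limma adjusted p = 5.5e-06) and by 0.27 in IDH2R140Q (adjusted p = 0.000814), and the latter call was lost under median-ratio scaling (0.0922, adjusted p = 0.250). IDH1 was lower in IDH1R132H (−0.92), IDH2R140W (−1.005) and IDH2R172K (−0.88), and IDH2 was higher in IDH2R140Q (0.50) and lower in IDH2R172K (−0.71).

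The enzymes had no common pattern over the 15 libraries. Pearson's r over log2(TPM + 1) ran from −0.80 for FH and GLUD1 to 0.84 for CS and OGDH, given as a description since libraries share groups and a fixed total. Among 8257 tested genes with a mean of at least 10 TPM, the genes whose pattern was most like each enzyme's were RPRD1A for CS (r = 0.96), STK4 for OGDH (0.98), PSAT1 for SUCLA2 (0.97), DDX19B for SUCLG1 (0.89), METTL3 for SUCLG2 (0.97), PFKL for FH (0.95) and DDX21 for GLUD1 (0.97). The second and the third were KDM3B and FARP2 for CS, ZNF335 and STK24 for OGDH, PNPT1 and DAP for SUCLA2, WRB and CDH18 for SUCLG1, NT5DC2 and SRSF7 for SUCLG2, CASP4 and UBA7 for FH, and TMEM173 and RRP12 for GLUD1. DDX21 and RRP12 lie on chromosome 10, as GLUD1 does, and NT5DC2 on chromosome 3, as SUCLG2 does. All the others named lie on chromosomes other than that of their enzyme gene. Besides the enzyme genes, chromosomes 10 and 3 held 415 and 653 tested protein-coding genes. Whether shared chromosomes were more frequent than in other genes was not tested.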

How the data were processed

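Poly(A) RNA libraries of TF-1 cells were made with a directional kit, per the labels' protocols. The authors deposited 1 table of 63568 rows in TPM, which corrects for transcript length and fixes the total of each library. Build hg38 and the tools STAR 2.7.3, HTSeq, RSEM and DESeq2 are listed in the submitters' processing notes without their roles. The annotation release and the strand setting were not given in the sources used here. Since TPM holds no read number, depth and counting precision are unknown, and abundant genes that change shift the rest.

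Rows of 1 symbol were summed to 56624 symbols, and 6 rows with ambiguous date-like names were dropped. The 14881 symbols that reached 1 TPM in 3 or more libraries were fitted as log2(TPM + 1) with limma 3.58.1 in R 4.3.3, with 1 mean per group over 15 libraries and an intensity trend. P-values were Benjamini-Hochberg adjusted over all genes tested. An exact permutation test of 3 against 3 libraries cannot go below p = 0.1 and was not used. The fit was also run on simulated data with independent noise per gene and library, which checks the code and not the calls made here. Coordinates are from GENCODE release 29 (GRCh38) and promoter windows from RefSeq (GRCh38.p14). No 2 libraries held identical values.

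The enzymes, gene lists and tests were chosen with earlier results of these data known. All 8 enzymes and the other TCA cycle enzymes were to be named, and of each further list up to 3 passing genes per comparison with the largest difference; genes beyond this rule (GOT1 and PC in some lines, and the chromosomal neighbours) were named after their values were seen. A few genes are counted with their list or neighbourhood and are not reported here by name. Alternatives were median-ratio and quantile scaling, rescaling without globin and mitochondrially encoded genes, another pseudocount, no or a stricter filter, only the compared libraries, no trend, weights per library, a replicate block, the highest row per symbol, and each library omitted in turn. Omitting Parental replicate 2 with IDH2R140W replicate 3 was added after the data were seen.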

Additional observations from a re-analysis of the deposited data

Results flagged for a closer look

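For 6 of the enzymes the difference from Parental was not the same in the 4 edited lines, by a limma F test over those lines adjusted over all genes. The adjusted p was 5.66e-07 for SUCLA2, where the IDH2R172K libraries lay at 15.4 to 18.2 TPM and all others at 32.1 or more. It was 2.98e-06 for FH, highest in IDH2R140Q and lowest in IDH1R132H. It was 3.11e-05 for GLUD1, where IDH1R132H was above Parental and IDH2R140Q below it. It was 4.11e-05 for SUCLG2, lowest in IDH1R132H, and 0.00386 for OGDH, where the IDH2R140W libraries overlapped Parental and those of the other lines did not. For SUCLG1 it was 0.0213, with group means between 72.9 and 88.4 TPM, and the difference did not pass under median-ratio scaling. By the same test 57.3% of all genes differed among the lines.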

How the results depend on the processing

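SUCLA2 and SUCLG2 in IDH2R172K, SUCLG2, OGDH and GLUD1 in IDH1R132H, and FH, OGDH and GLUD1 in IDH2R140Q kept their direction and passed in all 27 alternatives against Parental. The other calls of a single line against Parental were lost under at least 1 alternative, as given beside them, and that of FH in IDH2R140W also with only the compared libraries (adjusted p = 0.132).

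Of the 7 enzymes, 5 passed in IDH1R132H under quantile normalisation. In IDH2R140W, 1 passed with no filter on low values, 1 with no intensity trend, 1 with the replicate number as a block and 0 with only the compared libraries, and 0 to 2 without 1 library. Over all genes, 3570 passed in IDH2R140W, or 1685 with only the compared libraries and 6455 with library weights. Deviations from the group means were correlated between libraries of different groups. Same-numbered libraries gave r of −0.285 to 0.223, with 1 of 30 pairs over 0.1. Differently numbered libraries gave −0.370 to 0.499, with 4 of 60 pairs over 0.1. Of 15 libraries, 7 had their highest r with a library of the same number. These values show no clear pairing by number, and whether samples were paired was not tested. Under the replicate block the F test of CS passed (adjusted p = 0.0499) and SUCLA2 in IDH2R140W did not (0.0678). The F test of CS also passed in 4 other analyses (adjusted p = 0.0261 to 0.0379), and CS in IDH2R140Q passed with library weights (0.21, adjusted p = 0.0376).

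The differences that changed sign passed in none of these settings. Under median-ratio scaling they were SUCLA2 in IDH1R132H (−0.12) and IDH2R140Q (−0.15), SUCLG1 in IDH2R140Q (−0.0862), OGDH in IDH2R140W (−0.003), CS and GLUD1 in IDH2R172K (−0.0018 and −0.0151), CS in the mean of 4 lines (−0.0357) and SUCLG1 in IDH1R132H against the IDH2 lines (−0.0285). Under quantile normalisation they were SUCLA2 in IDH1R132H (−0.15) and IDH2R140Q (−0.19), SUCLG1 in IDH2R140Q (−0.065), GLUD1 in IDH2R172K (−0.0342) and SUCLG1 in IDH1R132H against the IDH2 lines (−0.0345). After rescaling without globin and mitochondrially encoded genes they were SUCLA2 in IDH1R132H (−0.005) and SUCLG1 against the IDH2 lines (−0.0197), the latter also with library weights (−0.006). Without both libraries of high ribosomal protein share they were SUCLA2 in IDH1R132H (−0.079) and IDH2R140Q (−0.0789), CS (−0.0139) and GLUD1 (−0.0266) in IDH2R172K and CS in the mean of 4 lines (−0.0032), and GLUD1 passed in that mean (−0.13, adjusted p = 0.043). Without 1 library, ranges that crossed 0 were −0.079 to 0.14 for SUCLA2 in IDH1R132H and −0.0789 to 0.14 in IDH2R140Q, −0.12 to 0.18 for OGDH and −0.19 to 0.0977 for GLUD1 in IDH2R140W, −0.0139 to 0.26 for CS and −0.0266 to 0.20 for GLUD1 in IDH2R172K, −0.0502 to 0.23 for CS and −0.17 to 0.0581 for GLUD1 in the mean of 4 lines, and −0.0198 to 0.0537 for SUCLG1 in IDH1R132H against the IDH2 lines.

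With 5 neighbours on each side in place of 10, medians moved for CS to 0.22 in IDH1R132H, 0.65 in IDH2R140Q and 0.48 in IDH2R172K, for OGDH to 0.12 in IDH2R140Q, for SUCLA2 to 0.26, 0.42 and 0.12 in IDH1R132H, IDH2R140Q and IDH2R140W, for SUCLG1 to 0.54, 0.35 and 0.51 in IDH1R132H, IDH2R140Q and IDH2R172K, for SUCLG2 to 0.0756 in IDH2R140W and −0.14 in IDH2R172K, for FH to 0.13 in IDH1R132H, and for GLUD1 to 0.47 in IDH1R132H and −0.0966 in IDH2R172K. That around SUCLA2 in IDH2R172K was −0.91. The causes of these changes were not tested.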
